A study of Homo sapiens with 21 samples.

Results

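The genes described here are 10 genes of eicosanoid synthesis and prostaglandin reception: the cyclooxygenases PTGS1 and PTGS2, the synthases PTGES, HPGDS, LTC4S and LTA4H, the prostaglandin E2 receptors PTGER2 and PTGER4, and the 5-lipoxygenase ALOX5 with its activating protein ALOX5AP. They were chosen by name, all 10 were matched by symbol to 1 identifier each, and they are 10 of 58174 gene identifiers measured. The cells were OCI-AML5, a human acute myeloid leukemia line, and poly(A) RNA was measured in 7 groups of 3 libraries. The control group was kept in DMSO, the vehicle, and carries a time label of 72 h. If that label holds, UM171 and time in culture cannot be told apart in the comparisons at 6, 24 and 48 h; a table of the study appears to take these libraries as the start of the time course. Another 4 groups received UM171, a small molecule used to expand blood stem cells in culture, for 6, 24, 48 or 72 h, at 500 nM by the library labels and at a lower dose by the study's own legend. The last 2 groups were cells carrying a guide RNA against EPCR (gene PROCR) and labelled EPCR null, named sgEPCR here. Of these, 1 group stayed in DMSO and the other had UM171 for 24 h. The study treated the DMSO and UM171 24 h libraries as guide controls for the sgEPCR cells, although their labels name no guide. It derived the sgEPCR cells from several independent clones, and which library came from which clone is not given in the sources used here. The sgEPCR DMSO libraries carry a label of 24 h and the control DMSO libraries one of 72 h, so genotype and time in DMSO cannot be told apart in any comparison between them.

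Eicosanoids are short-range lipid signals made from arachidonic acid, which phospholipase A2 releases from membranes. Cyclooxygenase converts it to prostaglandin H2, from which terminal synthases make prostaglandin E2 (PTGES), prostaglandin D2 (HPGDS) and the other prostanoids. 5-Lipoxygenase, presented with its substrate by ALOX5AP (FLAP), makes leukotriene A4 instead, and LTA4H and LTC4S turn that into leukotriene B4 and leukotriene C4. PTGER2 (EP2) and PTGER4 (EP4) are the prostaglandin E2 receptors that raise cyclic AMP, and prostaglandin E2 acting on them is known to support blood stem and progenitor cells. Myeloid cells, mast cells among them, are major producers of prostaglandin D2 and leukotrienes.

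Libraries held 24286668 to 51540166 counts, with a median of 33888914. In 19 libraries 7.73% to 13.5% of counts lay on mitochondrially encoded genes, whereas sgEPCR DMSO replicate 1 held 35.9% and sgEPCR UM171 replicate 2 held 32.2%, so tests in sgEPCR cells were also run without this pair, and those values are given below. PROCR itself rose in control cells, by 3.71 on the log2 scale at 24 h, and was lower in sgEPCR than in control cells in UM171 (log2 -2.63, adjusted p = 1.92e-07) but not in DMSO (log2 0.42, adjusted p = 0.0224). All 8 markers of myeloid progenitors and leukemia were detected, and erythroid genes were at or near 0. Marker lists of other lineages each rested on 1 gene: ITGA2B (megakaryocyte, 0.13 to 20.2 TPM over the libraries), CD3D (T cell, 0 to 18.8), CD79A (B cell, 5.87 to 40.4) and PECAM1 (endothelial, 5.45 to 46.0). Their summed levels moved with UM171. The megakaryocyte sum went from 0.97 to 1.54 TPM in DMSO to 16.2 to 20.2 at 72 h and the T cell sum from 0.11 to 0.80 to 14.6 to 18.4. The B cell sum went from 9.48 to 10.4 TPM to 35.9 to 40.7 at 48 h and the endothelial sum from 42.1 to 46.0 to 12.7 to 13.8 at 24 h. Their part in the results below was not tested. Nothing in the labels says that replicates of a group came from separate cultures, so p-values measure the spread between these libraries, which may be technical. In bulk RNA, a change in the share of cells that express a gene and a change in RNA per cell cannot be told apart.

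Promoter sequence is shown for 4 genes that were called in 3 or more of the comparisons below and move together or in opposition: PTGS2, HPGDS and ALOX5AP, which rose, and PTGER2, which fell. PTGS1 and ALOX5 were also called in 3 or more comparisons. The sequence of PTGS1 is not shown, and ALOX5 had no entry among the promoters. Each line gives the 250 bases before the transcription start in RefSeq (GRCh38.p14), read 5′ to 3′ on the gene's strand, at chr1:186680424-186680673 (minus strand) for PTGS2, chr4:94342837-94343086 (minus) for HPGDS, chr13:30713235-30713484 (plus) for ALOX5AP and chr14:52314062-52314311 (plus) for PTGER2. Capitals mark matches, on either strand, to an NF-kB motif, the cyclic AMP response element TGACGTCA, the AP-1 motif TGANTCA, the C/EBP motif TTNNNNAA, the TATA box TATAAA and the GC box GGGCGG.
PTGS2: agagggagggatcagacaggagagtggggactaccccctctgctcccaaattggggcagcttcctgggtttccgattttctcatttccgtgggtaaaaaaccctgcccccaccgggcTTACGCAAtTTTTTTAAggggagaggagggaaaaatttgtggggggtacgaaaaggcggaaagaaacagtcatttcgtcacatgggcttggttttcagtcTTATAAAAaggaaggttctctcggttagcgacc
HPGDS: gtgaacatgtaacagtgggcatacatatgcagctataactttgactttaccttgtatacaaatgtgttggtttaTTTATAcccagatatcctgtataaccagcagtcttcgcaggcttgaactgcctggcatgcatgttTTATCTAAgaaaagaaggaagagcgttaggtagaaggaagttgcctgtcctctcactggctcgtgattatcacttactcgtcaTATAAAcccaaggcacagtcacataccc
ALOX5AP: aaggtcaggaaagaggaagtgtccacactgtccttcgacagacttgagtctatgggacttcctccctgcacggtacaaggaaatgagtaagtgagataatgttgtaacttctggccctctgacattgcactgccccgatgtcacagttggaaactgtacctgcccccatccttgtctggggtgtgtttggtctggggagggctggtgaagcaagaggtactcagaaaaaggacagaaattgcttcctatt
PTGER2: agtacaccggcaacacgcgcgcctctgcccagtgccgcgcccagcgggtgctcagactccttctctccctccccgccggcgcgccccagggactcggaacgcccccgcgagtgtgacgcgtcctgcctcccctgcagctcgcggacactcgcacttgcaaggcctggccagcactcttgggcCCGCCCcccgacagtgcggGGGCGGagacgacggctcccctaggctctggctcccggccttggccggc

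PTGS2 held 3 C/EBP matches, beginning 133, 124 and 33 bases before the start, and a TATA box at 32 bases that overlaps the third of them. HPGDS held 1 C/EBP match and 2 TATA boxes, at 176 and 28 bases. PTGER2 held GC boxes alone, at 68 and 49 bases, and ALOX5AP held no match to any of the 6 motifs in this window. Over 35116 promoter windows of the same length, a C/EBP match was present in 50.2%, a GC box in 42.6%, a TATA box in 10.7%, AP-1 in 6.57%, the NF-kB motif in 5.21% and the cyclic AMP response element in 1.65%. These are matches of letters and not measured sites. A site that differs from the letters searched was not marked, so a window without a match may still hold one.

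**Figure D1:**
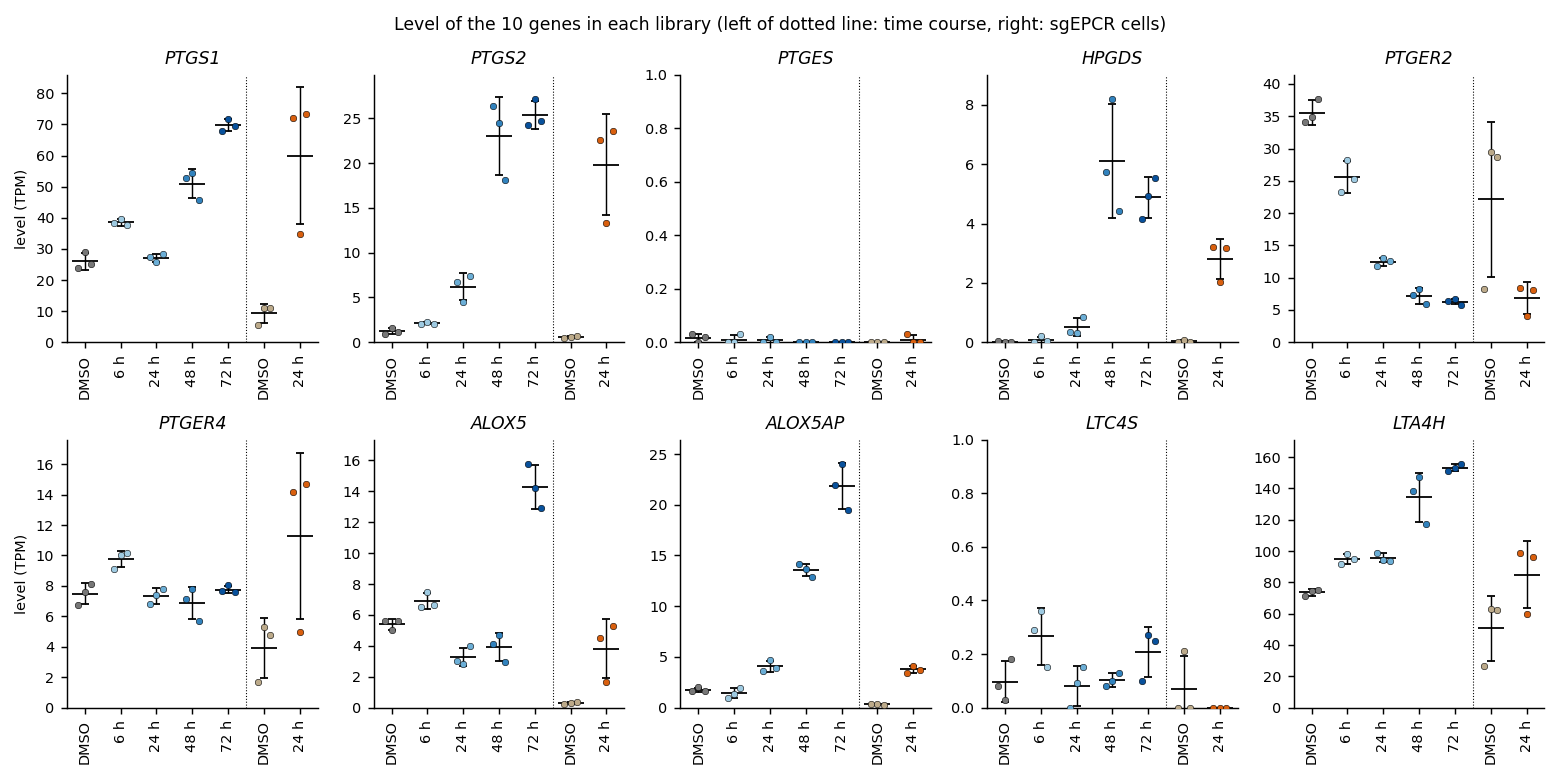
Level in TPM of each of the 10 genes (panels) in every library (points), by group, with the mean and SD of 3 libraries. Hours are time in UM171; the scale of each panel differs. PTGS2, HPGDS and ALOX5AP climb from at most 1.99 TPM in DMSO, PTGER2 descends, and PTGES and LTC4S stay under 1 TPM.

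PTGS2, the inducible cyclooxygenase, rose from 24 h on. PTGS2 (ENSG00000073756, chr1:186671791-186680922, minus strand, GRCh38 with GENCODE v44 as for all positions of genes here) stood at 0.96, 1.58 and 1.14 TPM (a level per length, scaled to the same total in every library) in the 3 DMSO libraries and at 2.06, 2.25 and 2.06 after 6 h. It stood at 6.71, 4.52 and 7.42 TPM after 24 h. The groups did not overlap up to this point, and each stood above the one before. At 48 h the values were 26.4, 24.5 and 18.1 TPM and at 72 h 24.2, 27.2 and 24.7, so that these last 2 groups overlapped. Changes were tested on counts with edgeR's quasi-likelihood method, with p adjusted over all genes, and a gene is said to rise or fall, or to be called, where adjusted p was under 0.0001 and the change over 2-fold. The log2 change of PTGS2 against DMSO was 2.50 ± 0.18 (SE) at 24 h (adjusted p = 1.83e-09), 4.34 ± 0.17 at 48 h and 4.41 ± 0.17 at 72 h, the last a 21.3-fold rise. At 6 h it was 0.90 ± 0.21 (adjusted p = 0.00142), which is under 2-fold. An antisense RNA over its start, PACERR, held at most 26 counts in a library.

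PTGS1, the constitutive cyclooxygenase, was the more abundant of the pair and moved less. PTGS1 (ENSG00000095303, chr9:122370530-122395703, plus strand) measured 23.7, 29.0 and 25.3 TPM in DMSO, 38.2, 39.6 and 37.7 at 6 h and 27.3, 25.9 and 28.4 at 24 h. It then measured 52.8, 54.3 and 45.6 TPM at 48 h and 67.9, 71.7 and 69.4 at 72 h. The 24 h libraries lay within the DMSO range, while those of 6, 48 and 72 h lay above it. Only the 72 h change passed both limits, at 2.61-fold (log2 1.39 ± 0.05, adjusted p = 5.49e-14). The earlier log2 changes were 0.44 ± 0.05 at 6 h, -0.19 ± 0.05 at 24 h and 0.82 ± 0.05 at 48 h. An RNA on the same strand overlaps PTGS1 and held at most 32 counts.

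HPGDS, the hematopoietic prostaglandin D synthase, went from almost no counts to a clear signal, whereas PTGES, the inducible prostaglandin E synthase, held no more than 1 count in any library. HPGDS (ENSG00000163106, chr4:94298535-94342876, minus strand) had 1, 0 and 0 counts in DMSO and 1, 2 and 1 at 6 h. Counts were 11, 9 and 11 at 24 h, 198, 164 and 118 at 48 h and 130, 153 and 155 at 72 h. The steep part of the change thus fell between 24 and 48 h, and the last 2 groups overlapped in TPM (4.41 to 8.20 and 4.16 to 5.54). Since DMSO held a single count in all, the change is given as the ratio of summed counts, each divided by its library totals, with its exact counting interval of 95%: 27.4 (4.57 to 1120) at 24 h, 484 (86.5 to 19200) at 48 h and 443 (79 to 17500) at 72 h. Adjusted p was 2.56e-05, 4.10e-12 and 4.99e-12 in turn. The 24 h call was lost without DMSO replicate 2 (adjusted p = 0.00024) or DMSO replicate 3 (0.00031). PTGES (ENSG00000148344, chr9:129738331-129753042, minus strand) stayed below the 3 counts taken as a floor in all 21 libraries and was not tested. Such floors cover counting error only.

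The 2 prostaglandin E2 receptors parted. PTGER2 (EP2; ENSG00000125384, chr14:52314305-52328598, plus strand) measured 34.1, 34.9 and 37.7 TPM in DMSO, 23.2, 28.3 and 25.2 at 6 h, and 11.8, 13.1 and 12.5 at 24 h. It measured 7.31, 8.25 and 5.88 TPM at 48 h and 6.39, 6.70 and 5.83 at 72 h. Every group lay below the one before without overlap, except the 48 h and 72 h groups. The log2 change was -0.63 ± 0.06 at 6 h, which is under 2-fold (adjusted p = 1.13e-07), and PTGER2 fell by 1.57 ± 0.06 at 24 h, by 2.33 ± 0.07 at 48 h and by 2.58 ± 0.07 at 72 h (adjusted p = 2.74e-15). PTGER4 (EP4; ENSG00000171522, chr5:40679915-40693735, plus strand) ranged from 6.74 to 8.11 TPM in DMSO and from 9.13 to 10.1 at 6 h. By 24 h it ranged from 6.78 to 7.81 TPM, by 48 h from 5.69 to 7.78 and by 72 h from 7.59 to 8.03. It was called at no time, with log2 changes of 0.00 ± 0.07, -0.18 ± 0.07, -0.21 ± 0.07 and -0.02 ± 0.07 in time order; that at 6 h and that at 72 h change sign with the scaling. At 6 h its TPM lay above DMSO while its scaled counts did not, and plain scaling to the library total shifted the median of all genes by 0.20 on the log2 scale there. TTC33, on the opposite strand over PTGER4, held up to 1422 counts, and the strand setting of the counting is not given in the sources used here.

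ALOX5AP rose early and ALOX5 late. ALOX5AP (FLAP; ENSG00000132965, chr13:30713478-30764426, plus strand) measured 1.62, 1.99 and 1.61 TPM in DMSO and 0.98, 1.31 and 1.94 at 6 h, groups that overlap. It measured 3.65, 4.71 and 3.89 TPM at 24 h, 14.1, 13.7 and 12.9 at 48 h and 22.0, 24.0 and 19.5 at 72 h. From 24 h on each group lay above the one before. The log2 change was 1.22 ± 0.18 at 24 h (adjusted p = 1.27e-05), 3.00 ± 0.16 at 48 h and 3.58 ± 0.16 at 72 h, which is 12-fold. The 24 h call was lost without DMSO replicate 1 (adjusted p = 0.00012), DMSO replicate 3 (0.00017) or UM171 24 h replicate 2 (0.00016), with log2 changes of 1.19, 1.14 and 1.08.

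ALOX5 (5-lipoxygenase; ENSG00000012779, chr10:45374176-45446119, plus strand) was lower at 24 and 48 h, by less than 2-fold, and rose at 72 h. It measured 5.63, 4.99 and 5.59 TPM in DMSO and 6.52, 7.48 and 6.65 at 6 h. Values were 3.03, 2.85 and 3.97 TPM by 24 h, 4.13, 4.68 and 2.95 by 48 h, and 15.8, 14.2 and 12.9 by 72 h. The 24 h and 48 h groups overlapped each other and lay below DMSO, and the 72 h group lay above all others. The log2 change was -0.72 ± 0.09 at 24 h (adjusted p = 2.82e-06) and -0.31 ± 0.09 at 48 h, both under 2-fold, and the rise at 72 h was 2.64-fold (log2 1.40 ± 0.08, adjusted p = 7.82e-11). At 24 h every library lay below the DMSO range for the enzyme and above it for its activating protein.

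LTA4H, which makes leukotriene B4, was the most abundant of the 10 genes in every group, and LTC4S, which makes leukotriene C4, was close to undetected. LTA4H (ENSG00000111144, chr12:96000753-96043520, minus strand) measured 71.3, 74.5 and 75.2 TPM in DMSO. It ranged from 91.8 to 98.3 TPM after 6 h and from 93.7 to 98.9 after 24 h, and then from 117 to 147 by 48 h and from 151 to 155 by 72 h. All UM171 groups lay above DMSO, and the 6 h and 24 h groups overlapped. Its log2 changes of 0.22 ± 0.04, 0.35 ± 0.04, 0.90 ± 0.04 and 0.99 ± 0.04 in time order were all under 2-fold. The last lay at the limit: it passed both limits at 1.01 without UM171 72 h replicate 2, at 1.06 with upper quartile scaling or at least 10 counts in every library, at 1.07 with total count scaling, and at 1.047 and 1.056 with limma. LTC4S (ENSG00000213316, chr5:179793980-179796647, plus strand) held at most 3.57 estimated counts in a library and was not tested.

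**Figure D2:**
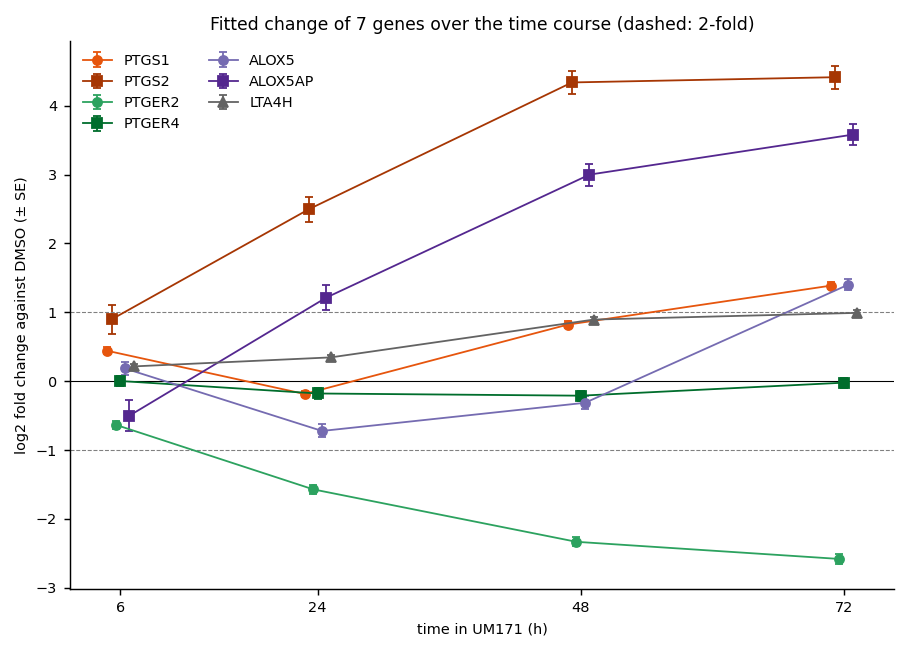
Fitted log2 fold change against DMSO (y axis, ± SE) at 6, 24, 48 and 72 h in UM171 (x axis) for 7 genes; dashed lines mark 2-fold, and points are shifted sideways so that they do not hide each other. HPGDS is left out because DMSO held a single count. PTGS2 and ALOX5AP reach 4.41 and 3.58, PTGER2 reaches -2.58, and PTGER4 stays near 0.

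Counted over the 10 genes, of which 8 passed the filter on low counts, none was called at 6 h, when 7.03% of all genes tested were called. That 0 from edgeR stands beside 5 of 8 with an unadjusted p under 0.05 and 0 by DESeq2. At 24 h 4 were called (PTGS2, HPGDS and ALOX5AP higher, PTGER2 lower) against 13.7% of all genes, and at 48 h those 4 were called again, against 16.4%. At 72 h PTGS1 and ALOX5 joined them, making 6 called against 20.8% of all genes. HPGDS passed the filter through the groups in which it was high, so these counts describe the list and are no test of it. All 4 comparisons share the same DMSO libraries. The order of the levels changed with these shifts. In DMSO the mean levels ran LTA4H (73.6 TPM), PTGER2 (35.5), PTGS1 (26.0), PTGER4 (7.47), ALOX5 (5.40), ALOX5AP (1.74) and PTGS2 (1.23). At 72 h they ran LTA4H (153 TPM), PTGS1 (69.7), PTGS2 (25.4), ALOX5AP (21.8), ALOX5 (14.3), PTGER4 (7.76), PTGER2 (6.31) and HPGDS (4.88). No neighbours in either order overlapped in range, and ALOX5AP and PTGS2 came closest in DMSO, at 1.61 to 1.99 and 0.96 to 1.58 TPM.

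The makeup of 3 pairs was followed as a share of their summed TPM. PTGS2 made up 4.46% ± 0.65 (SD, n = 3) of cyclooxygenase TPM in DMSO and 5.23% after 6 h. Its share was 18.4% ± 3.1 after 24 h, 31.0% ± 2.4 after 48 h and 26.7% ± 0.7 by 72 h. PTGER2 made up 82.6% ± 0.7 of the TPM of the 2 receptors in DMSO and 72.3%, 63.0%, 50.9% and 44.8% in time order, so that by 72 h PTGER4 was the larger of the pair in every library. ALOX5AP made up 24.4% ± 3.6 of the ALOX5 and ALOX5AP sum in DMSO and 16.9% after 6 h. That share was 55.5% after 24 h, 77.8% ± 3.4 after 48 h and 60.4% ± 2.3 by 72 h. Shares at 24, 48 and 72 h did not overlap those of DMSO for any pair. The exact two-sided permutation test gave p = 0.1 for each of these 9, the smallest that 3 libraries against 3 allow, and an adjusted value of 0.14 over the 21 comparisons of shares. In sgEPCR cells the PTGS2 share was 6.47% ± 1.85 in DMSO and 25.3% ± 2.1 in UM171, the PTGER2 share was 84.5% ± 1.5 and 39.3% ± 5.1, and the ALOX5AP share was 51.6% ± 11.5 and 51.9% ± 16.5. The last of these rests on the UM171 library rich in mitochondrial counts, at 70.9% against 43.1% and 41.6% in the other two.

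**Figure D3:**
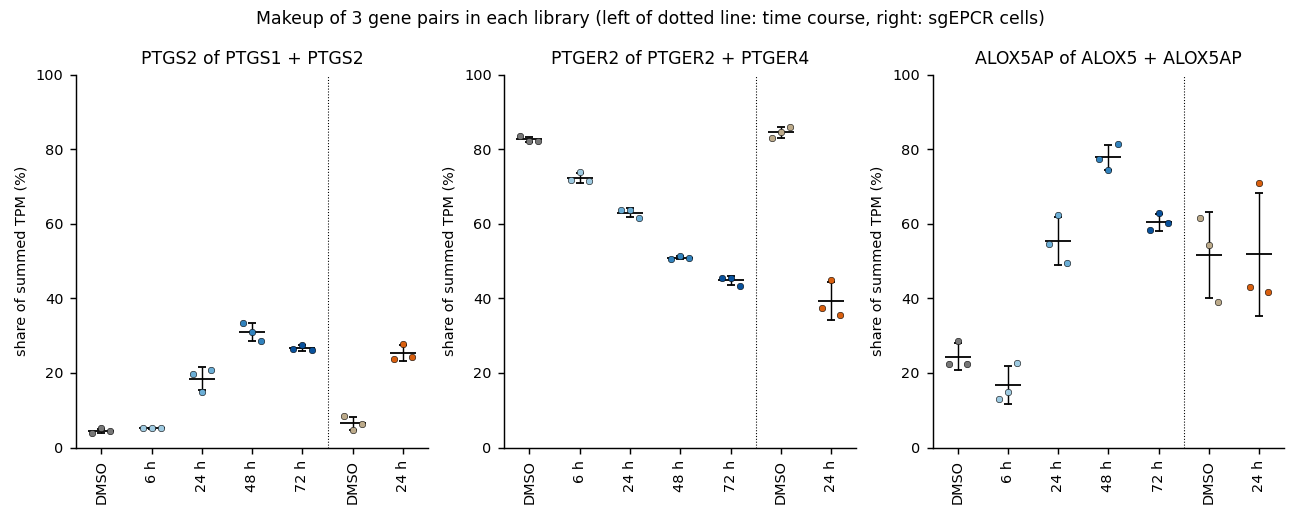
Share (%) of PTGS2 in the summed TPM of both cyclooxygenases, of PTGER2 in that of both receptors, and of ALOX5AP in that of ALOX5 and ALOX5AP, per library (points) with mean and SD of 3. The mean PTGS2 share is 4.46% in DMSO and 31.0% at 48 h, and the mean PTGER2 share is 82.6% in DMSO and 44.8% at 72 h.

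In sgEPCR cells, UM171 for 24 h raised both cyclooxygenases, HPGDS, PTGER4 and ALOX5 and lowered PTGER2. Because TPM is drawn down in the libraries with many mitochondrial counts, values here are counts brought to a common library size with TMM factors (CPM). PTGS1 stood at 24.0, 27.3 and 27.1 in sgEPCR cells in DMSO and at 164, 124 and 163 in UM171, against 62.4, 69.8 and 64.7 and then 58.2, 55.3 and 60.6 in control cells. The sgEPCR libraries lay below the control libraries in DMSO and above them in UM171. PTGS2 stood at 1.75, 1.68 and 1.61 and then 54.1, 63.7 and 53.4 in sgEPCR cells, against 2.49, 2.80 and 2.56 and then 15.7, 11.3 and 18.4 in control cells. The log2 response of sgEPCR cells was 2.53 ± 0.12 for PTGS1 and 5.09 ± 0.19 for PTGS2 (adjusted p = 5.27e-08 and 1.40e-08). Without the pair of libraries rich in mitochondrial counts these responses were 2.59 and 5.03, both called.

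HPGDS counts were 0, 1 and 0 in sgEPCR cells in DMSO and 85, 86 and 101 in UM171. The ratio of summed counts was 266 with an exact 95% counting interval of 47.3 to 10500 (adjusted p = 5.48e-06), and the lowest sgEPCR UM171 library, at 2.20 CPM, lay above the highest control UM171 library, at 0.416. The difference between the responses of HPGDS in the 2 genotypes was 3.20 ± 2.23 on the log2 scale and was not called (adjusted p = 0.270). With 1 count over each DMSO group, that test could resolve little. PTGER2 went from 28.1, 41.2 and 38.0 to 9.01, 10.8 and 9.46 CPM, ranges that do not overlap, with a log2 response of -1.88 ± 0.13. The difference of that response from the one in control cells was -0.31 ± 0.18 on the log2 scale (adjusted p = 0.196). Without the pair of libraries rich in mitochondrial counts it was -0.52 (adjusted p = 5.4e-05), which passed the limit on p and stayed under 2-fold. PTGER4 went from 9.77, 12.6 and 12.5 to 29.2, 21.7 and 30.6 CPM (log2 1.23 ± 0.15, adjusted p = 4.64e-05). The call of PTGER4 was lost when any single library other than sgEPCR UM171 replicate 2 was left out, with log2 values between 1.11 and 1.36 over all 12.

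ALOX5 went from 0.273, 0.384 and 0.443 CPM in sgEPCR cells in DMSO, which are 5, 13 and 19 counts, to 4.66, 3.75 and 5.23 in UM171. In control cells it went from 7.54, 6.29 and 6.71 to 4.08, 4.23 and 4.20. The groups in UM171 overlapped between genotypes while those in DMSO lay far apart. The log2 response was 3.57 ± 0.19 in sgEPCR cells (adjusted p = 1.29e-07), and 3.56 without that pair of libraries. ALOX5AP went from 0.491, 0.177 and 0.140 to 1.67, 3.83 and 1.83 (log2 3.34 ± 0.46), with an adjusted p of 1.18e-04 just outside the limit; without sgEPCR DMSO replicate 1 it was 6.5e-05 (log2 3.90) and without sgEPCR UM171 replicate 2 it was 6.7e-05 (log2 2.91). LTA4H had a log2 response of 0.57 ± 0.07, or 0.48 without the pair, both under 2-fold.

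In all, 6 of the 10 genes were called in the response of sgEPCR cells, against 10.3% of all genes tested. Without the 2 libraries rich in mitochondrial counts 7 were called, while calls over all genes went from 1642 to 2567. HPGDS, among the 6, passed the filter through the sgEPCR UM171 group, in which it was high. These counts describe the list and are no test of it. The difference between the responses of sgEPCR and control cells was tested directly as an interaction. It was called for 3 genes, against 7.77% of all genes: PTGS1 (log2 2.70 ± 0.16, adjusted p = 6.96e-07), PTGS2 (2.56 ± 0.24, adjusted p = 1.25e-05) and ALOX5 (4.29 ± 0.24, adjusted p = 6.25e-07), each with a larger response in sgEPCR cells. Without the 2 libraries rich in mitochondrial counts these were 2.78, 2.54 and 4.29, and all 3 were called. For PTGER4 the difference was 1.39 ± 0.21 (adjusted p = 3.03e-04) and for ALOX5AP 2.13 ± 0.59 (adjusted p = 0.0136), neither called. Both were called without the same 2 libraries, which gave 5 calls, while interaction calls over all genes went from 1236 to 3120. PTGER4 alone also passed without sgEPCR UM171 replicate 2 (log2 1.52, adjusted p = 2.8e-05). Leaving out both libraries rich in mitochondrial counts keeps 2 in each sgEPCR group, and these were close to each other. Between them the chi-square per degree of freedom of the counts, near 1 for sampling noise alone, was 4.69 in DMSO and 1.65 in UM171. Pairs with a library that was left out gave 514 to 717. The calls gained in this way rest in part on the narrow spread of the libraries kept. With limma on log2(TPM + 1) none of the 8 passed, at adjusted p values of 0.0046 for PTGS1, 0.0047 for PTGS2 and 0.0028 for ALOX5.

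**Figure D4:**
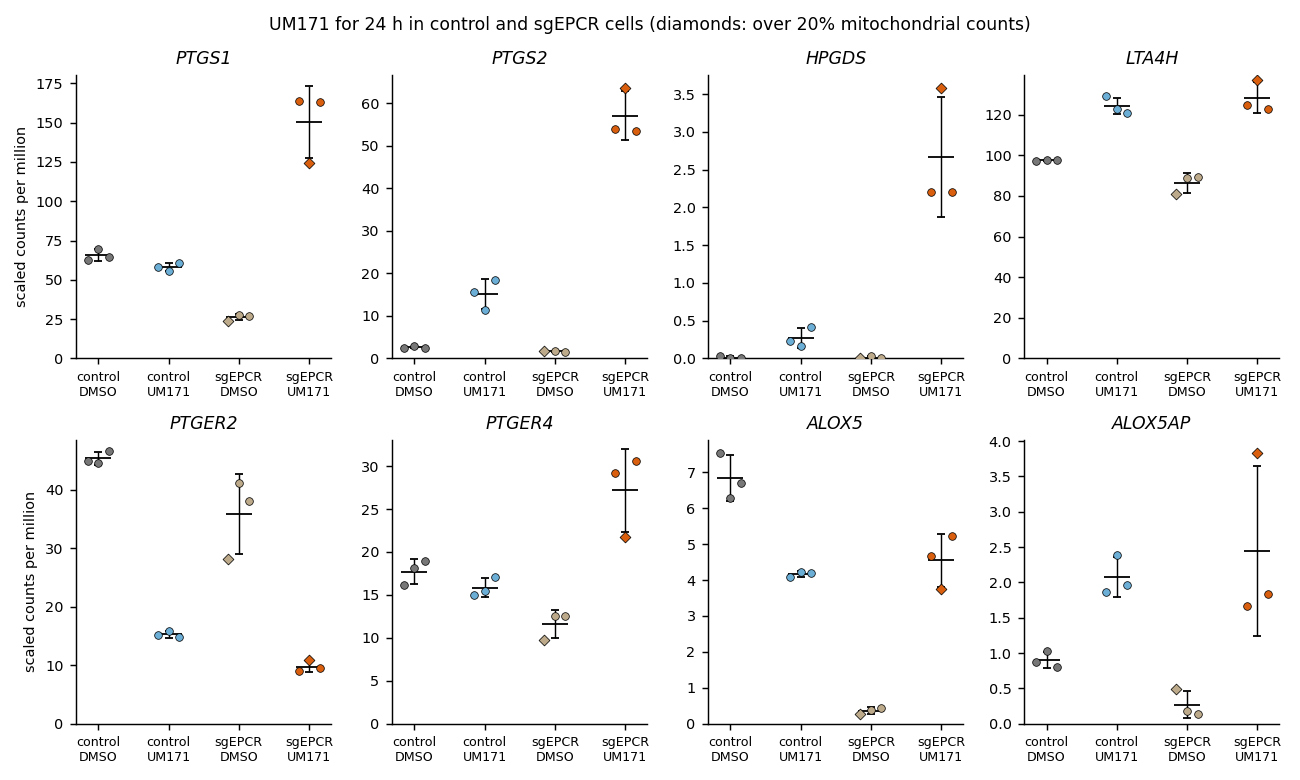
TMM-scaled CPM (y axis) of 8 genes by genotype (control, sgEPCR) and treatment (DMSO, UM171 24 h); points are libraries, diamonds the 2 with over 20% mitochondrial counts, and bars the mean and SD of 3. PTGS1 and ALOX5 are lower in sgEPCR cells in DMSO (ALOX5 at 0.273 to 0.443 against 6.29 to 7.54), and PTGS2 in UM171 is higher (53.4 to 63.7 against 11.3 to 18.4).

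Between genotypes in DMSO, 2 of the 10 genes were called, against 2.84% of all genes tested, both lower in sgEPCR cells. ALOX5 was lower by a log2 value of -4.15 ± 0.19 (adjusted p = 3.24e-07) and PTGS1 by -1.33 ± 0.11 (adjusted p = 1.24e-05). The PTGS1 call was lost without any 1 of the 3 control DMSO libraries or without sgEPCR DMSO replicate 2 or 3, while its log2 value stayed between -1.37 and -1.27. ALOX5AP had a log2 difference of -1.92 ± 0.47 (adjusted p = 0.00967), and -2.50 (adjusted p = 6.8e-06) without the 2 libraries rich in mitochondrial counts. In UM171 2 genes were called against 4.46% of all genes, both higher in sgEPCR cells: PTGS2 (log2 1.92 ± 0.16, adjusted p = 6.04e-06) and PTGS1 (1.38 ± 0.11, adjusted p = 5.89e-06). The PTGS1 call was lost without UM171 24 h replicate 2 (log2 1.34, adjusted p = 1.0e-04). HPGDS stood at a log2 difference of 3.38 ± 0.42 (adjusted p = 1.06e-04), just outside the limit, and passed without sgEPCR DMSO replicate 1 (log2 3.38, adjusted p = 9.8e-05). ALOX5 had a log2 difference of 0.13 ± 0.15 in UM171, or 0.25 without the 2 libraries (adjusted p = 0.055). Without them 3 genes were called between genotypes in DMSO, ALOX5AP being added, and 3 in UM171, where HPGDS was added (log2 3.15, adjusted p = 1.6e-06). Calls over all genes went up as well without them, from 452 to 1064 in DMSO and from 709 to 1615 in UM171.

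The rest of the pathway was followed over 47 further genes fixed as a list by role, of which 31 passed the filter in the time course and 26 in the sgEPCR comparison. In time order 4, 8, 11 and 15 of them rose, while 3 fell at 24 h and 1 at 48 h, beside 7.03%, 13.7%, 16.4% and 20.8% of all genes called in either direction. Of the 26 tested in sgEPCR cells, 2 were called with UM171, both higher, against 10.3% of all genes. The time course had medians over those tested of 0.47, 0.21, 0.57 and 1.23 on the log2 scale beside medians of all genes between -0.01 and 0.02. HPGD, AKR1C3, PTGR1 and ALOX15B, with 3, 3, 1 and 1 counts over the DMSO group, passed the filter through groups in which they were high. These counts and medians therefore describe the list and are no test of it. HPGD, which oxidises and inactivates prostaglandin E2, held 3 counts over the DMSO group and 29, 184, 458 and 677 in time order, a ratio of 228 at 72 h (exact 95% interval 77.7 to 1110, adjusted p = 4.88e-13). PTGR2, a prostaglandin reductase, rose at 24, 48 and 72 h, by 5.12-fold at the end, and PTGR1, a reductase with 1 count in DMSO, rose at 48 and 72 h. SLCO2A1, the prostaglandin uptake transporter, fell by 2.23 at 24 h and rose by 1.47 at 72 h on the log2 scale, from 11 to 14 counts per library in DMSO to between 2 and 5 at 24 h and between 34 and 42 at 72 h.

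Of the other prostanoid synthases, AKR1C3, which acts on prostaglandin D2 and prostaglandin H2, went from 3 counts over the DMSO group to 38, 250, 303 and 350, a ratio of 118 at 72 h (exact 95% interval 40 to 574). It also rose in sgEPCR cells (log2 4.80, adjusted p = 1.46e-06). TBXAS1, thromboxane synthase, rose by 8.55-fold at 24 h and by 5.34-fold at 72 h. In UM171 TBXAS1 was lower in sgEPCR than in control cells (log2 -2.95, adjusted p = 4.30e-06). PLA2G4A, the cytosolic phospholipase A2 that frees arachidonic acid, rose by 3.53-fold at 24 h and 3.09-fold at 48 h and was not called at 72 h. PLA2G4C, another cytosolic phospholipase A2, fell by 1.40 on the log2 scale at 24 h (52 to 75 counts per library in DMSO, 16 to 36 at 24 h), and the median of the 4 phospholipases tested was -0.68 then. Among low-count genes, the prostacyclin synthase PTGIS rose at 72 h (1 to 4 counts in DMSO, 14 to 22 at 72 h), as did the lipoxygenases ALOX12B (1 to 5 and then 26 to 30 counts) and ALOX15B (1 count over the DMSO group and 59 at 72 h). PTGIS and ALOX12B, like ALOX15B, passed the filter on low counts through groups in which they were high. None of the 7 other prostanoid receptors on the list passed the filter on low counts.

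On the leukotriene side, 7 of 9 conversion and breakdown genes were tested. Of these 1, 3, 4 and 5 rose in time order, against the shares of all genes given above, and 1 fell at 24 h and at 48 h. MGST2, which can also make leukotriene C4, rose from 24 h on (2.86-fold then and 2.35-fold at 72 h) from a mean of 38.8 TPM in DMSO. GGT1 and DPEP1, which trim leukotriene C4 to leukotrienes D4 and E4, rose by 6.62-fold and 3.92-fold at 72 h, and DPEP2, of the same family, by 3.12-fold. EPHX2, a soluble epoxide hydrolase, rose at every time, by 2.46-fold at 6 h and 7.73-fold at 72 h. GGT5, which cleaves leukotriene C4 too, fell by 4.92 at 24 h and by 3.91 at 48 h on the log2 scale, from 167 to 187 counts per library in DMSO to between 4.90 and 8.65 at 24 h. At 72 h GGT5 was not called, with 133 to 149 counts. CYSLTR2, a receptor for these leukotrienes, rose at 48 h (5.60-fold) and 72 h (11.2-fold) and in sgEPCR cells at 24 h (8.15-fold). OXER1, a receptor for another 5-lipoxygenase product, rose at 6 h (2.58-fold) and was not called later. The response to UM171 differed between genotypes for 3 of the 26 genes tested, against 7.77% of all genes: it was more positive in sgEPCR cells for CYSLTR2 and GGT5 and more negative for PTGR2. Already in DMSO, GGT5 was lower in sgEPCR than in control cells (log2 -3.39, adjusted p = 2.46e-05) and PTGR2 higher (1.40, adjusted p = 6.10e-05), while CYSLTR2 stood at -1.37 (adjusted p = 9.32e-04). In UM171 none of these 3 was called between genotypes, at log2 2.27 for GGT5, 1.51 for CYSLTR2 and -0.51 for PTGR2.

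**Figure D5:**
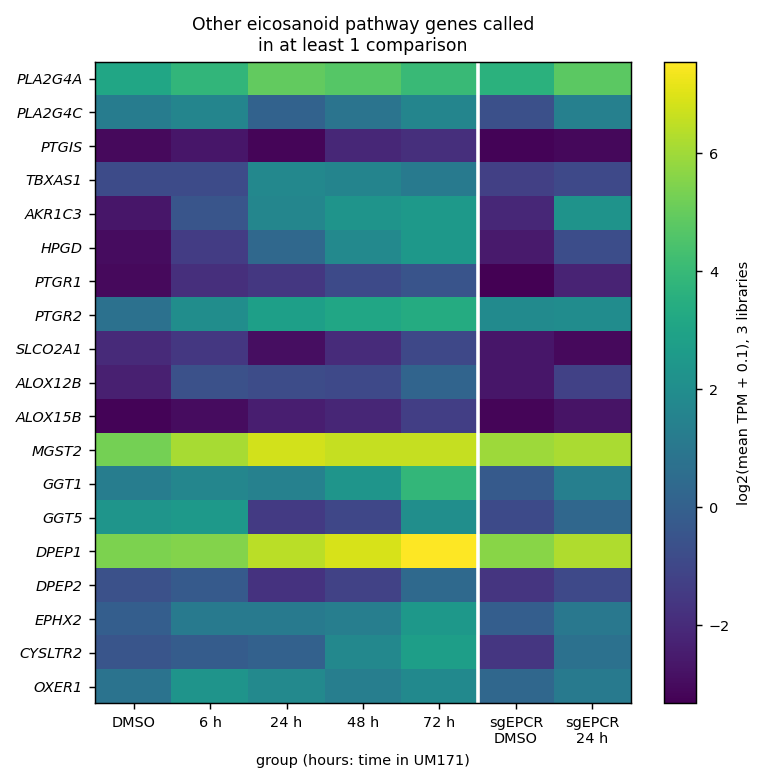
Mean level of 19 other eicosanoid pathway genes (rows), those called in at least 1 comparison, in the 7 groups (columns; hours are time in UM171), as log2(mean TPM + 0.1) of 3 libraries. DPEP1 and MGST2 hold the highest levels, and HPGD and AKR1C3 go from 3 counts over the DMSO group to 677 and 350 at 72 h.

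A list of 11 mast cell, basophil and eosinophil markers went up in summed level from 24 h on, as HPGDS and ALOX5AP did. Its summed level was 55.5 to 58.7 TPM in DMSO and 50.7 to 55.6 after 6 h. It then went to 126 to 174 TPM by 24 h, 325 to 410 by 48 h and 586 to 642 by 72 h. In sgEPCR cells the sum was 23.1 to 62.4 TPM before and 111 to 247 with UM171. The mean of HPGDS was 6.12 TPM at 48 h and 4.88 at 72 h. After 24 h in UM171 it was 2.80 TPM in sgEPCR cells and 0.50 in control cells, while the ranges of the sum overlapped. TPM is drawn down in the sgEPCR UM171 library rich in mitochondrial counts, and whether the overlap rests on that library was not tested. The number of genes on the list with a mean of 1 TPM or more went from 4 of 11 in DMSO to 8 of 11 at 72 h. The markers did not move as one. Over the 21 libraries TPSAB1 ranged from 0.73 to 126 TPM, HDC from 0.02 to 58.6, CPA3 from 0.08 to 26.9, PRG2 from 2.83 to 246 and GATA2 from 14.5 to 219, TPSB2 reached 15.1, IL1RL1 5.90 and FCER1A 2.34 TPM, while KIT, MS4A2 and CLC stayed at or below 14, 17 and 2 counts. The summed level of 7 monocyte and macrophage markers was 119 to 141 TPM in DMSO and 253 to 270 at 72 h. CD68 (50.5 to 141 TPM over the libraries), CSF1R (10.4 to 54.5) and ITGAM (2.84 to 100.3) carried this sum, with CD14, FCGR3A and MRC1 at no more than 17, 6 and 10 counts. The part of such cells, or of such a program, in the changes of the 10 genes was not tested.

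Over the 21 libraries, log2 levels of PTGS2 followed those of HPGDS (Pearson r = 0.973) and ran against those of PTGER2 (r = -0.968). These correlations describe 7 shared conditions and carry no test. The genes whose levels were most like each member were DNAH8 for PTGS2 (r = 0.992), TRAF1 for PTGS1 (0.976), GCSAML and CD52 for HPGDS (0.987 each), NOM1 for PTGER2 (0.983), CAPN2 for PTGER4 (0.959), ITPR1 for ALOX5 (0.982), MILR1 for ALOX5AP (0.98) and PLSCR1 for LTA4H (0.988).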

How the data were processed

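The members and gene lists were chosen with earlier results of these data known, and the named genes are the 10 members in every comparison plus the 19 listed pathway genes called in at least 1 comparison; PTGER3 was added after its values were seen. The authors deposited RSEM expected counts per gene (estimated counts, with ambiguous reads divided over genes) and TPM, which divides by effective length and sums to the same total in each library, together with the transcript length and a posterior SD of the count, 2 other columns that were deposited as descriptors. Submitters' processing notes name CASAVA 1.8.2, Trimmomatic 0.35, STAR 2.5.1b and RSEM 1.2.28 on GRCh38, whereas the study's methods name kallisto and sleuth. A share of reads from mitochondrial genes enters TPM, so it lowers the TPM of all other genes.

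The 45 second entries of pseudoautosomal genes were added to the first, and identifiers were matched to symbols through a table of gene names and GENCODE v44 (57392 of 58174). Expected counts were rounded and fitted in edgeR 4.0.16 (R 4.3.3) with filterByExpr, TMM and the quasi-likelihood test. The time course used 15 libraries (16575 genes) and the sgEPCR comparisons 12 (15901 genes), each with group means and no block. Adjusted p values follow Benjamini and Hochberg over every gene tested; the SE is the size of the log2 change over the square root of F. Alternatives included limma 3.58.1 on log2 TPM with pseudocounts of 1 and 0.1, DESeq2 1.42.0, other scalings, filters, limits and library sets, a replicate block and leaving out each library. Statistics were tested on simulated data. Python 3.11.15, scipy 1.17.1 and matplotlib 3.10.9 were used for shares, intervals and figures. Promoters came from RefSeq for GRCh38.p14 and matched 9 of the 10 genes.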

Additional observations from a re-analysis of the deposited data

Results flagged for a closer look

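The response to UM171 at 24 h differed between sgEPCR and control cells, by the interaction test, for 3 of the 10 genes and for 3 of 26 further pathway genes tested, against 7.77% of all genes. On the log2 scale, sgEPCR minus control, the difference was 2.70 for PTGS1, 2.56 for PTGS2 and 4.29 for ALOX5. ALOX5 was called in sgEPCR cells alone, where it rose from 5, 13 and 19 counts in DMSO, and control cells had a log2 change of -0.72 in 3 of 3 libraries below the DMSO range. Among the pathway genes the difference was 5.65 for GGT5, 2.88 for CYSLTR2 and -1.90 for PTGR2. All 6 rest on the same 3 control DMSO libraries, whose time label is 72 h while that of the sgEPCR DMSO libraries is 24 h, and the 2 cannot be told apart from genotype. Groups of 3 libraries are too small to test single libraries as outliers. The 2 libraries rich in mitochondrial counts still stood apart within their groups. Pairs with 1 of them had a chi-square per degree of freedom of 514 to 717, against 4.69 and 1.65 for the other sgEPCR pairs.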

How the results depend on the processing

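Numbers below are members called, or log2 changes. In the time course all alternative tools, scalings and filters left 0, 4, 4 and 6 calls or a count within 1.5 times, except limma on log2(TPM + 1), which gave 2 at 24 h, and the limit of adjusted p under 0.05 with no minimum fold, which gave 4, 8 and 8 calls at 6, 24 and 48 h. Leaving out 1 library gave 2 (without DMSO replicate 3) to 4 calls at 24 h. The sgEPCR comparisons depend more on the processing; the causes were not tested. The response of sgEPCR cells went from 6 calls to 3 with either limma setting. The interaction went from 3 to 0 with either limma setting and to 5 without the 2 libraries rich in mitochondrial counts, as with either limit of adjusted p under 0.05. Genotype in DMSO went from 2 to 0 with either limma setting, to 1 with total count scaling or at least 10 counts in every library (ALOX5 was then not tested), to 5 with no minimum fold, and to between 1 and 2 on leaving out a library. Genotype in UM171 went from 2 to 0 with either limma setting or total count scaling, to 5 with no minimum fold, and to between 1 and 3 on leaving out a library. Over all genes, calls in the sgEPCR comparisons in the same order were 1642, 1236, 452 and 709, against 270, 29, 12 and 58 with limma on log2(TPM + 1), 306, 8, 3 and 21 with a pseudocount of 0.1, 2540, 2571, 1066 and 1484 with DESeq2, 2509, 2426, 987 and 1364 with all 21 libraries in one fit, and 2567, 3120, 1064 and 1615 without the 2 libraries. Total count scaling gave 424, 207 and 296 for the last 3. In the time course limma on log2(TPM + 1) gave 587, 1262, 1638 and 2263 against 1165, 2276, 2719 and 3448. Plain scaling to the library total moved the median of all genes by -0.25 for genotype in DMSO.

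With the replicate number as a block, the time course counts were 0, 4, 4 and 6, and the counts in sgEPCR comparisons were 1, 0, 0 and 0, with 114, 0, 0 and 0 calls over all genes. Same-numbered libraries did not deviate together in the time course (r between -0.079 and 0.075). For sgEPCR cells r was -0.563 and -0.561 for replicates 1 and 2 and 0.413 for replicate 3. In sgEPCR cells 4 of the 6 differently numbered pairs reached 0.425 to 0.655. The highest of these joined the 2 libraries rich in mitochondrial counts. Such values do not settle what a number marks. The labels tie it to no clone or culture, and it was not used as a pair.

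Signs turned only for changes that were not called. PTGER4 at 6 h was -0.011 with DESeq2 or its size factors, -0.044 with no filter, -0.008 without mitochondrial genes and -0.066 to 0.053 on leaving out a library. PTGER4 at 72 h was 0.051 and 0.057 with limma (pseudocounts 1 and 0.1), 0.050 with upper quartile scaling, 0.056 with total count scaling, 0.044 with at least 10 counts and -0.088 to 0.030 on leaving out a library. PTGS1 at 24 h was 0.066 and 0.069 with limma. The PTGER2 interaction was 0.021 with limma on log2(TPM + 1). HPGDS by genotype in DMSO was -0.175 with the replicate block and -1.87 to 2.04 on leaving out a library. ALOX5AP by genotype in UM171 was -0.094 and -0.114 with limma, -0.188 with the replicate block, -0.251 without the 2 libraries and -0.252 to 0.420 on leaving out a library. LTA4H there was -0.202 and -0.205 with limma, -0.076 with total count scaling, -0.002 without the 2 libraries and -0.006 to 0.074 on leaving out a library.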

Other observations

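The mean transcript length that RSEM assigned to PTGS1 differed between groups. It was 3877 to 4141 bases in DMSO, 4025 to 4268 at 6 h, 3478 to 3504 at 24 h, 3376 to 3712 at 48 h and 4049 to 4196 at 72 h. The 24 h and 48 h libraries thus lay below all DMSO libraries, and those of 72 h overlapped them. PTGS1 at 24 h had a log2 change of -0.19 in counts and of 0.07 in log2(TPM + 1), a scale that takes account of length. In sgEPCR cells the length was 2862, 3645 and 3593 bases in DMSO and 3869, 3184 and 3786 in UM171, with the lowest value of each group in the library rich in mitochondrial counts.

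PTGER3, another prostaglandin E2 receptor, was chosen after its values were seen and did not pass the filter on low counts. It held 1 count over the sgEPCR DMSO group and 33 over the sgEPCR UM171 group, a ratio of 32.3, each count divided by its library totals, with an exact 95% counting interval of 5.40 to 1310, and 16 and 3 counts over the control DMSO and UM171 24 h groups, a ratio of 0.166 (0.0309 to 0.579). These intervals cover counting error only.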
